A study of Mus musculus with 111 samples.

Results

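The genes described here are 33 genes that are listed as targets of the tumour suppressor p53 or as genes of the DNA damage response, chosen by name from 36134 gene identifiers in the deposited table. They were measured in single mouse embryos at the 2-cell stage, in which siRNAs against Nr5a2, an orphan nuclear receptor, were compared with control siRNAs. All embryos were of strain B6129F1 and came from germinal vesicle oocytes that received 2 siRNAs by injection (20 µM of each), stayed arrested for 5 hours, matured for 12 hours and were fertilized in vitro. Knockdown oocytes received 150 ng/µl of marker RNA coding for H2B-rsEGFP together with the siRNAs, and control oocytes received 150 ng/µl of marker RNA coding for H2B-EGFP, so the marker and the siRNA cannot be told apart. The injection preceded maturation, so changes that began in the oocyte and changes that began in the embryo cannot be told apart either. The 55 knockdown embryos were split into 16, 16 and 23 over experiments 1, 2 and 3, and the 56 control embryos into 24, 7 and 25. Levels are given in CPM, the counts of a gene scaled to a common library size, and ± after a log2 fold change is its SE. CPM is a share of the polyadenylated RNA of an embryo, so less RNA of a gene and more RNA of other genes cannot be told apart. Whether some embryos had the same mother is not labelled, and the p-values therefore reflect differences among single embryos only.

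p53 is a transcription factor that is kept low by Mdm2, a ubiquitin ligase and itself a p53 target, and that accumulates after DNA damage or other stress. Its targets fall into groups that feed back on p53, stop the cell cycle, trigger apoptosis, carry death signals at the membrane, adjust metabolism, or repair DNA. In the mouse, the embryonic genome is activated mainly at the 2-cell stage, so RNA at that stage is partly of maternal and partly of embryonic origin.

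The libraries held between 1.97 M and 21.4 M estimated counts (M for mega), with a median of 4.54 M in knockdown embryos and 4.98 M in control embryos. Nr5a2 averaged 48.6 ± 19.8 CPM in knockdown embryos (SD, n = 55) and 109 ± 48.9 CPM in control embryos (SD, n = 56), for a log2 fold change of -1.17 with an SE of 0.12. The 20 markers of the 2-cell stage summed to a median of 2083 CPM in knockdown embryos (235 to 7913) and 2279 CPM in control embryos (511 to 8515). None of the 20 had a median of 0 over all embryos. The 12 oocyte markers summed to a median of 4165 CPM in knockdown embryos (2324 to 16479) and 3989 CPM in control embryos (2862 to 6871). Of the 15 cumulus cell markers, 7 had a median of 0 over all embryos, among them Has2, Ptx3 and Foxl2. The list summed to 19.0 to 275 CPM in knockdown embryos and 30.1 to 181 CPM in control embryos. The 6 sperm markers summed to at most 7.30 CPM in knockdown embryos and 8.55 CPM in control embryos. The 13 transcripts of the mitochondrial genome summed to a median of 76135 CPM in knockdown embryos and 68872 CPM in control embryos. Of these 13, 6 were called higher in knockdown embryos, against 0.632% of all genes, and all 13 had positive log2 fold changes. Over all libraries, 7 embryos stood apart, with a median Spearman correlation to the other libraries of 0.656 to 0.759 against at least 0.790 for the rest. They were 5 knockdown embryos (embryos 10 and 13 of experiment 1 and embryos 5, 8 and 15 of experiment 3) and 2 control embryos (embryo 8 of experiment 1 and embryo 2 of experiment 2), and results are also given without them.

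Promoters are shown for Cdkn1a, Mdm2 and Ccng1, textbook p53 targets whose values recur in the comparisons. Each sequence covers the 250 bases before an annotated start in RefSeq (GRCm38.p6), 5′ to 3′ on the strand of the gene. Matches to the p53 half-site decamer are in capitals. Each match is to a half-site only, and a full p53 response element was not searched for. For each gene the first window that held a match was taken, so a match was a condition of showing it. The window of Cdkn1a is chr17:29090729-29090978 on the plus strand, that of Mdm2 is chr10:117710759-117711008 on the minus strand, and that of Ccng1 is chr11:40755287-40755536 on the minus strand.
Cdkn1a: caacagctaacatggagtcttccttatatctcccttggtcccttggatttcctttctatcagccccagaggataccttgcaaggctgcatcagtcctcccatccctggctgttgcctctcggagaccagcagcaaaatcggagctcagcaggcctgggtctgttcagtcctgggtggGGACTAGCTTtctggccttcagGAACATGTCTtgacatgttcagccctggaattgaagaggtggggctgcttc
Mdm2: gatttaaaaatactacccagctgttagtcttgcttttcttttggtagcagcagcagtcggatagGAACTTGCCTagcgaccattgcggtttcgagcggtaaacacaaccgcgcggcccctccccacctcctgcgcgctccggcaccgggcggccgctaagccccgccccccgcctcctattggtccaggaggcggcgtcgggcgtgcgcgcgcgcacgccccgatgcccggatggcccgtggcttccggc
Ccng1: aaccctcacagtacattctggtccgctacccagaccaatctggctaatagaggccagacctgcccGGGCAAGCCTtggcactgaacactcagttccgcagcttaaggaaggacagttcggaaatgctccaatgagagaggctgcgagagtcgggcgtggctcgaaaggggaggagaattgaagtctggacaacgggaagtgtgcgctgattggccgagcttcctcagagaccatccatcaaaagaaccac
The Cdkn1a window held matches from -73 to -64 and from -51 to -42 relative to the start, the Mdm2 window held a match from -186 to -177, and the Ccng1 window held a match from -185 to -176. Promoter windows of 300 bases (250 before the start and 50 after it) were found for 25 of the 33 genes. Searched on both strands, 12 of their 32 windows (37.5%), from 11 genes, held at least 1 decamer, against 8.36% of all 32851 windows in the table. The matching windows of Aen overlap and hold the same site. The genes were chosen from listed p53 targets and damage response genes, so the higher share is not a separate result about them. The other 8 genes with a match were Gadd45a, Bax, Aen, Ckap2, Ei24, Sesn1, Polk and Gtse1. TCAAGGNCA, a motif bound by Nr5a2, was found on either strand in 1 of the 32 windows, that of Polk, against 1.62% of all windows, and it did not overlap the decamer there. A match describes letters in the window and is neither a bound site nor a cause of a level.

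Compared by level per length, the genes spanned a wide range, and most were present in every embryo. Levels per length are in TPM, a share of all transcripts that allows for transcript length, computed from the counts of each annotated transcript. Gadd45b, which binds stress kinases and links to p38 signalling, was the most abundant, with a median of 242 TPM in knockdown embryos and 209.7 TPM in control embryos. Tigar, a phosphatase that lowers glycolytic flux, followed with a median of 128 TPM in knockdown embryos and 153 TPM in control embryos. For Tigar, 69.1% of counts fell on a coding transcript of 3651 bases. The other 30.9% fell on a transcript of 855 bases annotated for nonsense-mediated decay. The shorter transcript weighs more per count in TPM, so this level is not that of the coding transcript alone. Cdkn1a, the cyclin-dependent kinase inhibitor p21, had a median of 122 TPM in knockdown embryos and 98.5 TPM in control embryos. Next came Mdm2 with a median of 104.5 TPM in knockdown embryos and 94.3 TPM in control embryos. The neighbours in this order overlapped widely between embryos, as the interquartile ranges in the plot of level per length show. At the other end, Fas, Phlda3 and Zfp365 had a median of 0 in both arms, and Perp had a median of 0.948 TPM in knockdown embryos and 0.690 TPM in control embryos. Zmat3, the lowest of the tested genes and an RNA-binding zinc finger protein, had a median of 1.26 TPM in knockdown embryos and 1.18 TPM in control embryos. Ei24, an endoplasmic reticulum protein linked to autophagy, had the highest CPM of the genes, with a median of 467 CPM in knockdown embryos and 499 CPM in control embryos. It has no level per length here, because 97.1% of its counts fell on transcripts without an annotated length in GENCODE M21.

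**Figure D1:**
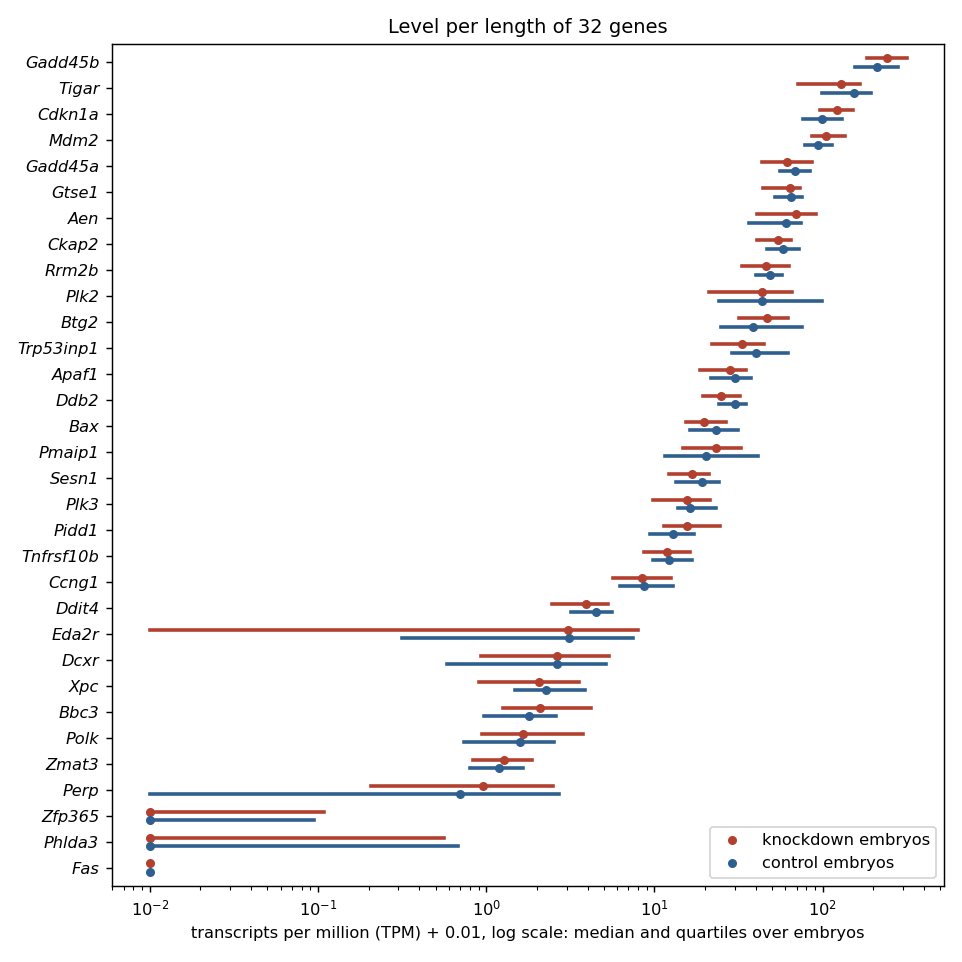
Level per length of 32 genes in TPM plus 0.01 on a log axis, with points for the median and lines for the quartiles over 55 knockdown embryos (red, upper) and 56 control embryos (blue, lower). Gadd45b is at the top with medians of 242 TPM in knockdown and 209.7 TPM in control embryos, and Fas, Phlda3 and Zfp365 have medians of 0 in both arms.

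Counts were found in every embryo for 24 of the 33 genes. Fas, the receptor for Fas ligand, was detected in 6 of 55 knockdown embryos and 8 of 56 control embryos. Phlda3, an inhibitor of Akt signalling, was detected in 19 knockdown embryos and 18 control embryos, and Zfp365 in 15 knockdown embryos and 16 control embryos. Perp, a membrane protein of cell junctions, was detected in 42 knockdown embryos and 41 control embryos, and Dcxr, a carbonyl reductase, in 45 knockdown embryos and 48 control embryos. These 5 genes did not pass the filter on low counts and were not tested in the main fit, which gives no statement on a difference for them. They were tested only in alternatives with another filter or fewer embryos, or in summed counts. A count of 0 allowed a level of up to 3 counts, which was 0.141 to 1.53 CPM over the libraries (counting error only).

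The first comparison asked whether knockdown of Nr5a2 changed these genes. None of the 28 tested genes was called at an adjusted p below 0.05 (edgeR quasi-likelihood test, Benjamini-Hochberg over 13448 genes), where 1.10% of all genes were called. At an unadjusted p below 0.05 there were 5 of 28 genes (17.9%), against 9.50% of all genes. Of these, Cdkn1a and Bbc3 had higher levels in knockdown embryos, against 5.28% of all genes, and Ddit4, Ddb2 and Plk2 had lower levels, against 4.22%. The smallest adjusted p was 0.319, for Ddit4. Log2 fold changes were positive for 13 and negative for 15 of the 28, with a median of -0.04, beside a median of 0.02 and a share of 54.9% positive over all genes. For 23 of the 28 genes the 95% interval lay within a 1.5-fold change either way, and for 25 within a 2-fold change. Eda2r, a receptor of the tumour necrosis factor family, Bbc3 and Polk had intervals that reached beyond 2-fold. The fold changes had 1 sign in all 3 experiments for 8 of 28 genes (28.6%), against 25.8% of all genes. Lowest, median and highest CPM are given below for each group, in the order knockdown and control, and gene positions are in GRCm38 (GENCODE M21).

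**Figure D2:**
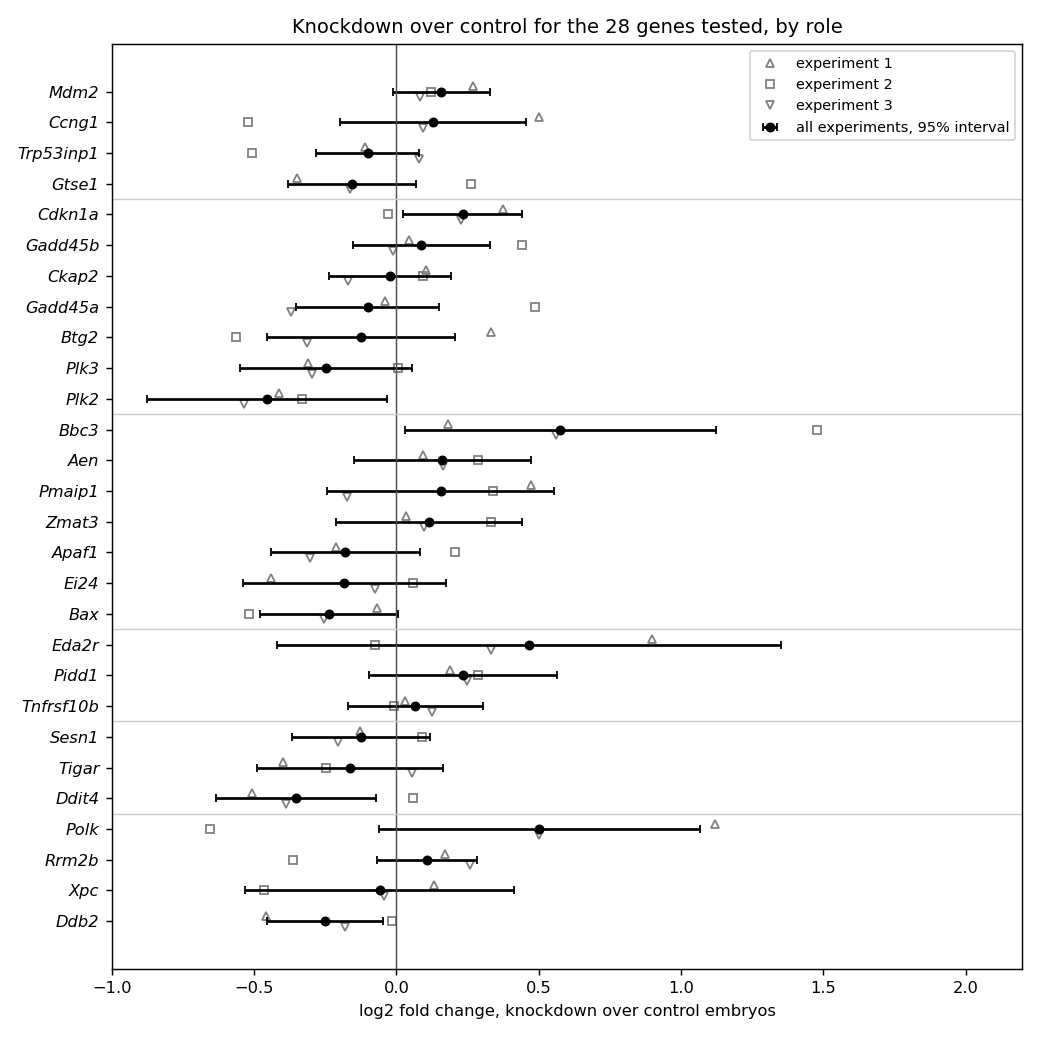
Log2 fold change of knockdown over control for the 28 tested genes, grouped by role, with black points and 95% intervals for all experiments together and open symbols for each experiment. Most intervals cross 0, and the points run from -0.46 for Plk2 to 0.58 for Bbc3.

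Among the genes that feed back on p53, none of the 4 was called, and their log2 fold changes ran from -0.16 to 0.16. Mdm2 had 73.6, 159 and 205 CPM in knockdown embryos of experiment 1, against 56.1, 123 and 259 CPM in its control embryos. In experiment 2 the values were 90.0, 149 and 225 CPM in knockdown and 67.6, 142 and 245 CPM in control embryos. Mdm2 in experiment 3 was at 93.0, 151 and 234 CPM in knockdown embryos, against 91.2, 129.7 and 279 CPM in control embryos. The arms overlapped in every experiment, with the median higher in knockdown embryos in each. The log2 fold change of Mdm2 (chr10:117688875-117710758) was 0.16 ± 0.09 (p = 0.607 after adjustment). Ccng1 encodes cyclin G1, a partner of Mdm2 and protein phosphatase 2A. Ccng1 had 8.89, 21.9 and 119 CPM in knockdown embryos of experiment 1, against 9.06, 18.1 and 104 CPM in its control embryos. Experiment 2 had 3.72, 11.9 and 20.7 CPM in its knockdown embryos, against 10.4, 13.1 and 42.3 CPM in its control embryos. Experiment 3 gave 5.71, 22.2 and 55.2 CPM in knockdown embryos, against 6.13, 22.2 and 58.4 CPM in control embryos. Experiment 2 was low in both arms, and the 2 arms overlapped in every experiment. For Ccng1 (chr11:40748552-40755311) the log2 fold change was 0.13 ± 0.17 (p = 0.925 after adjustment), and it was 0.50 in experiment 1, -0.52 in experiment 2 and 0.09 in experiment 3. Trp53inp1 encodes a stress-induced nuclear protein that acts with p53 in cell death and autophagy. Trp53inp1 had 52.6, 82.2 and 187 CPM in knockdown embryos of experiment 1, against 52.8, 98.8 and 169.5 CPM in its control embryos. For Trp53inp1 in experiment 2 these were 23.2, 47.1 and 84.3 CPM in knockdown embryos, against 57.1, 63.7 and 119 CPM in control embryos. In experiment 3 they were 50.8, 85.0 and 142 CPM in knockdown and 44.8, 76.0 and 173 CPM in control embryos. The arms overlapped in each experiment, and experiment 2 again lay lowest. Its log2 fold change (chr4:11156431-11174379) was -0.10 ± 0.09 (p = 0.858 after adjustment). Of its counts, 53.7% fell on a transcript annotated as processed and not as coding. Gtse1 encodes a microtubule-associated protein that can move p53 out of the nucleus. Gtse1 had 32.0, 82.6 and 160.4 CPM in knockdown embryos of experiment 1, against 38.0, 108 and 194 CPM in its control embryos. In experiment 2 the values were 98.5, 122 and 187 CPM in knockdown and 36.1, 105 and 182 CPM in control embryos. Gtse1 in experiment 3 was at 8.15, 86.7 and 120.4 CPM in knockdown embryos, against 34.6, 96.4 and 149.7 CPM in control embryos. The median of Gtse1 was lower in knockdown embryos in experiments 1 and 3 and higher in experiment 2, with overlapping arms. The log2 fold change of Gtse1 (chr15:85859745-85876573) was -0.16 ± 0.11 (p = 0.779 after adjustment).

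Of the 7 genes of cell cycle arrest and growth control, none was called, and Cdkn1a and Plk2 had an unadjusted p below 0.05. Cdkn1a had 51.7, 99.3 and 183 CPM in knockdown embryos of experiment 1, against 23.8, 68.5 and 173 CPM in its control embryos. Experiment 2 had 55.9, 106 and 147 CPM in its knockdown embryos, against 84.9, 108 and 123 CPM in its control embryos. Experiment 3 gave 40.0, 83.3 and 178 CPM in knockdown embryos, against 25.8, 68.0 and 145 CPM in control embryos. Medians were higher in knockdown embryos in experiments 1 and 3 and slightly lower in experiment 2, and the arms overlapped in all 3. Cdkn1a (chr17:29090976-29100727) had a log2 fold change of 0.23 ± 0.11 (p = 0.429 after adjustment) with an unadjusted p of 0.030, and its adjusted p stayed between 0.301 and 0.994 over the alternatives. Of the 55 knockdown embryos, 34 lay above the control median of their experiment. Its counts were split over 3 coding transcripts, which held 41.8%, 35.8% and 22.2% of them, and no transcript of Cdkn1a was called. Plk2 encodes a polo-like kinase of the early cell cycle. Plk2 had 9.57, 43.8 and 154 CPM in knockdown embryos of experiment 1, against 20.2, 44.6 and 287 CPM in its control embryos. For Plk2 in experiment 2 these were 33.7, 87.7 and 309 CPM in knockdown embryos, against 73.5, 143 and 288 CPM in control embryos. In experiment 3 they were 7.86, 83.5 and 234 CPM in knockdown and 21.2, 68.7 and 312 CPM in control embryos. Single embryos of both arms reached several times the median, and the arms overlapped throughout. The log2 fold change of Plk2 (chr13:110395046-110400844) was -0.46 ± 0.22 (p = 0.471 after adjustment), with an unadjusted p of 0.037. It was negative in each experiment, at -0.41, -0.33 and -0.54 in experiments 1, 2 and 3, although the median of experiment 3 was higher in knockdown embryos, and 25 of 55 knockdown embryos lay above the control median of their experiment.

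None of the other 5 genes of this group had an unadjusted p below 0.05. Gadd45b had 48.2, 131 and 314 CPM in knockdown embryos of experiment 1, against 46.7, 125 and 294 CPM in its control embryos. In experiment 2 the values were 138, 254 and 516 CPM in knockdown and 96.8, 185 and 329.8 CPM in control embryos. Gadd45b in experiment 3 was at 26.8, 199 and 296 CPM in knockdown embryos, against 86.7, 186 and 304 CPM in control embryos. Experiment 1 lay below the others in both arms, and the arms overlapped in each experiment. The log2 fold change of Gadd45b (chr10:80930073-80932204) was 0.09 ± 0.12 (p = 0.932 after adjustment). Gadd45a, a relative of Gadd45b induced by DNA damage, was lower in level. Gadd45a had 20.3, 44.3 and 77.3 CPM in knockdown embryos of experiment 1, against 12.8, 45.1 and 86.1 CPM in its control embryos. Experiment 2 had 17.1, 48.4 and 102 CPM in its knockdown embryos, against 13.0, 38.3 and 82.1 CPM in its control embryos. Experiment 3 gave 11.9, 40.7 and 75.8 CPM in knockdown embryos, against 25.8, 54.0 and 79.6 CPM in control embryos. Knockdown medians were lower in experiments 1 and 3 and higher in experiment 2, and the arms overlapped. Gadd45a (chr6:67035096-67037457) had a log2 fold change of -0.10 ± 0.13 (p = 0.921 after adjustment). Btg2, an antiproliferative adaptor of the deadenylase complex, had a log2 fold change of -0.13 ± 0.17 (p = 0.928 after adjustment). Plk3, a polo-like kinase of the stress response, had a log2 fold change of -0.25 ± 0.15 (p = 0.690 after adjustment). Ckap2, a protein of spindle microtubules, had a log2 fold change of -0.02 ± 0.11 (p = 0.986 after adjustment).

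**Figure D3:**
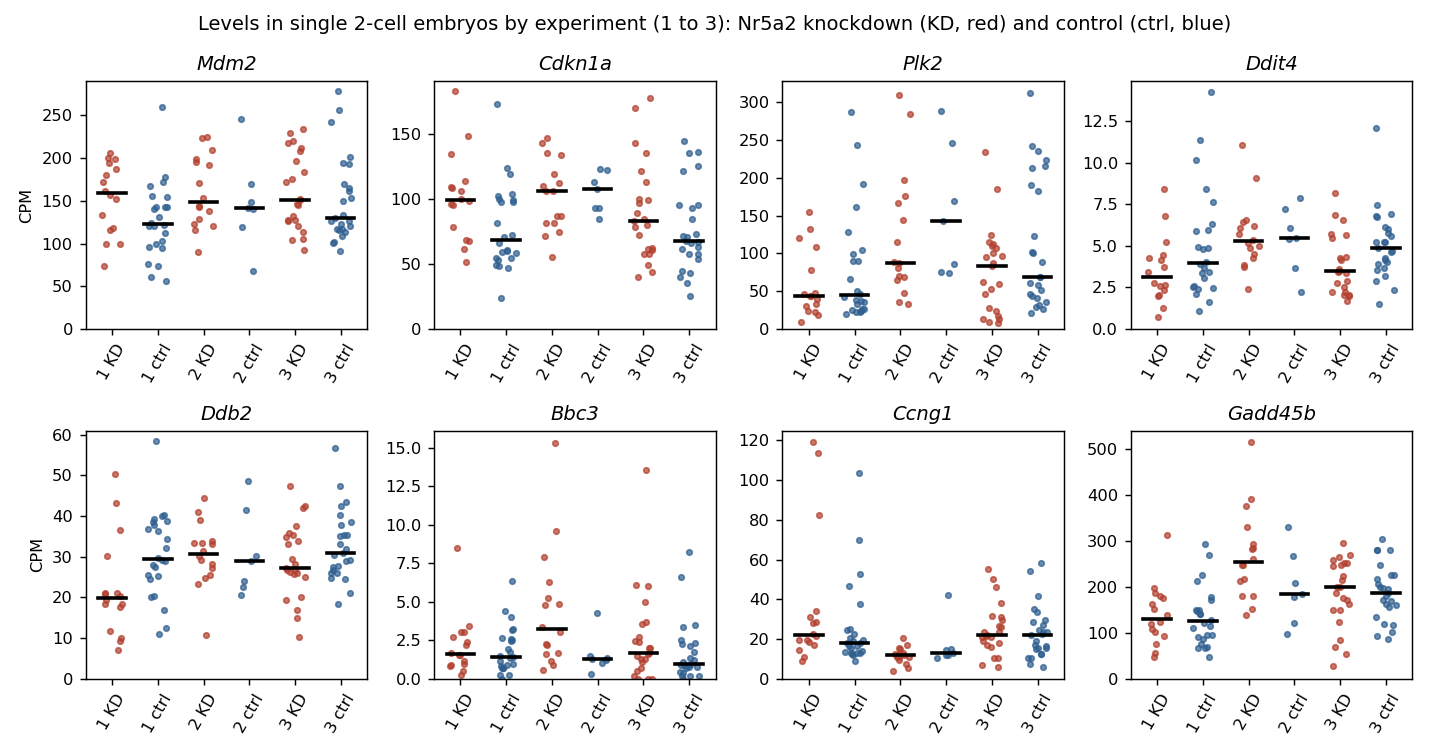
CPM in each embryo for 8 genes by experiment and arm (KD, knockdown, red; ctrl, control, blue), with a black line at the group median and each axis starting at 0. The arms overlap in every experiment and gene shown, Ccng1 is low in both arms of experiment 2, and single embryos of both arms reach over 300 CPM for Plk2.

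None of the 7 tested genes of apoptosis was called. Bbc3 had 0.222, 1.60 and 8.47 CPM in knockdown embryos of experiment 1, against 0, 1.44 and 6.35 CPM in its control embryos. For Bbc3 in experiment 2 these were 0.547, 3.21 and 15.3 CPM in knockdown embryos, against 0.288, 1.25 and 4.28 CPM in control embryos. In experiment 3 they were 0, 1.69 and 13.5 CPM in knockdown and 0, 0.945 and 8.21 CPM in control embryos. Bbc3 encodes PUMA, a BH3-only protein that neutralizes the survival proteins of the Bcl-2 family. The highest embryos were knockdown embryos, but most embryos of both arms lay within the same low range. Its log2 fold change (chr7:16308393-16318205) was 0.58 ± 0.28 (p = 0.488 after adjustment), with an unadjusted p of 0.041, and 40 of 55 knockdown embryos lay above the control median of their experiment. The median count behind these levels was 9 in knockdown embryos and 6 in control embryos, so single values of Bbc3 carry a large counting error. Bax had 4.21, 7.61 and 20.3 CPM in knockdown embryos of experiment 1, against 3.28, 9.73 and 18.1 CPM in its control embryos. In experiment 2 the values were 7.27, 9.86 and 21.1 CPM in knockdown and 7.80, 16.9 and 24.9 CPM in control embryos. Bax in experiment 3 was at 4.67, 10.1 and 23.4 CPM in knockdown embryos, against 3.28, 14.7 and 27.5 CPM in control embryos. Bax forms pores in the outer mitochondrial membrane. The knockdown median of Bax was lower in each experiment, and the arms overlapped. Bax (chr7:45461697-45466898) had a log2 fold change of -0.24 ± 0.12 (p = 0.554 after adjustment) with an unadjusted p of 0.057, and 16 of 55 knockdown embryos lay above the control median of their experiment. Pmaip1, the BH3-only protein NOXA, had a log2 fold change of 0.16 ± 0.20 (p = 0.925 after adjustment). Apaf1, the scaffold of the apoptosome, had a log2 fold change of -0.18 ± 0.13 (p = 0.786 after adjustment). Aen, a nuclease of apoptotic cells, had a log2 fold change of 0.16 ± 0.16 (p = 0.877 after adjustment). The values for Ei24 were a log2 fold change of -0.18 ± 0.18 (p = 0.881 after adjustment), and those for Zmat3 were a log2 fold change of 0.11 ± 0.17 (p = 0.936 after adjustment).

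The 3 tested death receptors and adaptors had positive log2 fold changes, and none was called. Pidd1 had 7.57, 26.0 and 113 CPM in knockdown embryos of experiment 1, against 7.60, 26.2 and 51.4 CPM in its control embryos. Experiment 2 had 14.8, 40.8 and 117 CPM in its knockdown embryos, against 14.4, 34.2 and 85.8 CPM in its control embryos. Experiment 3 gave 0.833, 26.8 and 61.9 CPM in knockdown embryos, against 2.68, 21.8 and 63.0 CPM in control embryos. Pidd1 is the scaffold of the complex that activates caspase-2. Its arms overlapped in each experiment, and experiment 2 lay highest in both. The log2 fold change of Pidd1 (chr7:141438113-141444025) was 0.23 ± 0.17 (p = 0.77 after adjustment). Its main coding transcript held 29.9% of its counts, and transcripts annotated with a retained intron held 26.0%, 21.3% and 8.42%. Tnfrsf10b, the receptor of the ligand TRAIL, had a log2 fold change of 0.07 ± 0.12 (p = 0.957 after adjustment). Eda2r had a log2 fold change of 0.47 ± 0.45 (p = 0.872 after adjustment), and its levels ran from 0 to 132 CPM in knockdown embryos and from 0 to 35.2 CPM in control embryos. Most counts of Eda2r, 57.0%, fell on a transcript annotated with a retained intron, and 19.3% fell on another such transcript.

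Metabolism and growth signalling held 3 tested genes, all with negative log2 fold changes, and none was called. Ddit4 had 0.736, 3.10 and 8.42 CPM in knockdown embryos of experiment 1, against 1.09, 3.97 and 14.2 CPM in its control embryos. For Ddit4 in experiment 2 these were 2.42, 5.27 and 11.1 CPM in knockdown embryos, against 2.26, 5.46 and 7.85 CPM in control embryos. In experiment 3 they were 1.68, 3.47 and 8.20 CPM in knockdown and 1.48, 4.87 and 12.1 CPM in control embryos. Ddit4 encodes REDD1, an inhibitor of the growth kinase complex mTORC1. Knockdown medians of Ddit4 were lower in all 3 experiments, but the fitted log2 fold change in experiment 2 was 0.06, and the arms overlapped. Ddit4 (chr10:59949669-59951834) had a log2 fold change of -0.35 ± 0.14 (p = 0.319 after adjustment) with an unadjusted p of 0.016, and 19 of 55 knockdown embryos lay above the control median of their experiment. Its median count was 18 in knockdown embryos and 25.5 in control embryos. Tigar had 22.2, 125 and 298 CPM in knockdown embryos of experiment 1, against 27.6, 172 and 304 CPM in its control embryos. In experiment 2 the values were 54.6, 162 and 285 CPM in knockdown and 25.9, 179 and 274 CPM in control embryos. Tigar in experiment 3 was at 8.75, 141 and 313 CPM in knockdown embryos, against 30.8, 159 and 245 CPM in control embryos. The knockdown median of Tigar was lower in each experiment, but the fitted log2 fold change in experiment 3 was 0.06, and the arms covered nearly the same range. Tigar (chr6:127085116-127109557) had a log2 fold change of -0.16 ± 0.17 (p = 0.885 after adjustment). Sesn1, a leucine sensor that restrains mTORC1, had a log2 fold change of -0.12 ± 0.12 (p = 0.881 after adjustment).

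In DNA repair and nucleotide supply, none of the 4 tested genes was called. Ddb2 had 7.10, 19.9 and 50.2 CPM in knockdown embryos of experiment 1, against 11.0, 29.5 and 58.4 CPM in its control embryos. Experiment 2 had 10.8, 30.7 and 44.4 CPM in its knockdown embryos, against 20.5, 28.9 and 48.6 CPM in its control embryos. Experiment 3 gave 10.2, 27.2 and 47.4 CPM in knockdown embryos, against 18.3, 31.0 and 56.6 CPM in control embryos. Ddb2 recognizes ultraviolet damage for nucleotide excision repair. The knockdown median lay well below the control median in experiment 1, below it in experiment 3 and above it in experiment 2, and the arms overlapped in each. Ddb2 (chr2:91211572-91236982) had a log2 fold change of -0.25 ± 0.10 (p = 0.329 after adjustment) with an unadjusted p of 0.017. Within experiments it was -0.46, -0.02 and -0.18 in experiments 1, 2 and 3. Transcripts annotated as processed and not as coding held 31.9%, 17.6% and 12.0% of the counts of Ddb2. Exons of Ddb2 overlap those of Acp2 on the other strand, and the libraries do not record the strand, so reads of the 2 genes in the overlap cannot be told apart. Rrm2b had 93.1, 131 and 215 CPM in knockdown embryos of experiment 1, against 64.8, 116 and 202 CPM in its control embryos. For Rrm2b in experiment 2 these were 44.8, 61.5 and 94.7 CPM in knockdown embryos, against 63.6, 72.8 and 114 CPM in control embryos. In experiment 3 they were 75.7, 119 and 394 CPM in knockdown and 70.7, 105 and 254 CPM in control embryos. Rrm2b is a subunit of ribonucleotide reductase that supplies nucleotides outside S phase. The arms of Rrm2b overlapped in each experiment, and experiment 2 lay lowest in both. Rrm2b (chr15:37923952-37961318) had a log2 fold change of 0.11 ± 0.09 (p = 0.830 after adjustment). Xpc, the damage sensor of global genome repair, had a log2 fold change of -0.06 ± 0.24 (p = 0.985 after adjustment). Polk, a polymerase that copies past lesions, had a log2 fold change of 0.50 ± 0.29 (p = 0.641 after adjustment).

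At the level of transcripts, 61 transcripts of these genes passed the filter and none was called, where 0.309% of all 25258 transcripts were. A transcript each of Apaf1, Ddit4 and Plk2 had an unadjusted p below 0.05, against 6.30% of all transcripts. The authors' deposited tables list 158 transcripts of these genes, of which 78 have an adjusted p over all embryos and 98 in the threshold version. None of those in the authors' deposited tables was below 0.05, with a smallest value of 0.431 over all embryos and 0.229 in the threshold version.

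The response to the knockdown was then compared between experiments. None of the 28 genes was called for a difference of the response (interaction F-test), where 0.0149% of all genes were. Rrm2b alone had an unadjusted p below 0.05 (p = 0.037, adjusted p = 0.879), against 5.65% of all genes. Its log2 fold change was 0.17 in experiment 1, -0.36 in experiment 2 and 0.26 in experiment 3. Taken within single experiments, no gene of the 28 was called, with 0.922% of all genes called in experiment 1, 0 in experiment 2 and 0.149% in experiment 3. At an unadjusted p below 0.05 there were 4 of 28 in experiment 1 (Cdkn1a, Ddit4, Polk and Ddb2), against 9.31% of all genes. Experiment 2 had 2 (Trp53inp1 and Bbc3), against 3.84%, and experiment 3 had 1 (Gadd45a), against 7.15%.

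Levels were also compared between the experiments over both arms. Of the 28 genes, 12 (42.9%) were called for a difference between experiments with the arm as a covariate, against 32.0% of all genes. In control embryos alone the test called 3 of the 28 genes, Bax, Btg2 and Trp53inp1, against 12.8% of all genes. The others of the 12 did not pass there. They were Gadd45b (adjusted p = 0.072), Pmaip1 (0.091), Rrm2b (0.111), Pidd1 (0.115), Plk2 (0.258), Aen (0.346), Plk3 (0.465), Ccng1 (0.513) and Gtse1 (0.679). The labels give only the number of the experiment, so the experiment and everything done with it cannot be told apart. Rrm2b stood lowest in experiment 2, with a log2 fold change of -0.88 ± 0.12 over experiment 3 (adjusted p = 1.3e-08 over all genes), and was -0.01 ± 0.10 in experiment 1 over experiment 3. Ccng1 was also lower in experiment 2, at -0.87 ± 0.23 over experiment 3 (adjusted p = 0.0042). Trp53inp1 was lower in experiment 2 by -0.60 ± 0.13 (adjusted p = 0.00018). In the other direction, Pidd1 was higher in experiment 2 than in experiment 3 by 0.89 ± 0.22 (adjusted p = 0.0014). Plk3 was higher there by 0.72 ± 0.20 (adjusted p = 0.0051), and Gtse1 by 0.47 ± 0.15 (adjusted p = 0.016). Thus 3 of the 28 genes were higher in experiment 2 over experiment 3, against 7.90% of all genes, and 3 were lower, against 11.2%. Experiment 1 was lower than experiment 3 for Gadd45b (-0.44 ± 0.13, adjusted p = 0.015), Bax (-0.48 ± 0.14, adjusted p = 0.0093) and Pmaip1 (-0.66 ± 0.23, adjusted p = 0.035), against 4.91% of all genes, and higher for none of the 28, against 8.77%. Between experiments 1 and 2, a contrast added after the data had been examined, 3 genes were higher in experiment 1, against 13.1% of all genes, and 8 were lower, against 9.18%. The higher ones were Ccng1 (1.20 ± 0.24, adjusted p = 5.77e-05), Rrm2b (0.86 ± 0.13) and Trp53inp1 (0.83 ± 0.13). The lower ones were Plk2 (-1.03 ± 0.29, adjusted p = 0.00518), Gadd45b, Btg2, Aen, Pidd1, Bax, Plk3 and Apaf1, of which the last 7 lay between -0.82 and -0.50. No gene of the 28 differed by 2-fold or more between experiments 1 and 3 or between experiments 2 and 3, where 1.79% and 3.25% of all genes did. Between experiments 1 and 2, 3 did so (Ccng1, Plk2 and Eda2r), against 5.65% of all genes, and Eda2r did not pass the test there (1.01 ± 0.65, adjusted p = 0.276).

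**Figure D4:**
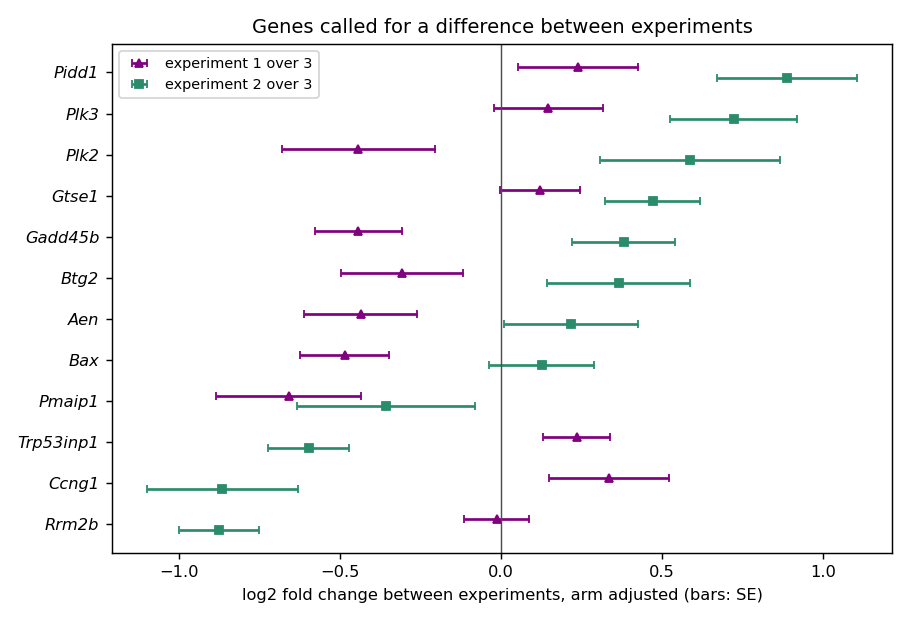
Log2 fold changes between experiments with their SE, with the arm as a covariate, for the 12 genes called for a difference, as triangles for experiment 1 over experiment 3 and squares for experiment 2 over experiment 3. Pidd1 lies highest for experiment 2 at 0.89 and Rrm2b lowest at -0.88.

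A separate question was whether the genes varied together between embryos of one group. Log2 CPM was centred within experiment and arm, and Mdm2, the ligase of the feedback loop, was related to each of the other 27 tested genes over all embryos (permutation test within groups, two-sided, 100000 resamples, Benjamini-Hochberg over the 27). Of these relations 14 passed with Pearson's r, 8 positive and 6 negative, and 12 passed with both r and Spearman's rho. The share of all genes that would pass with Mdm2 was not computed, so these counts do not set these genes apart from others. All values of one embryo come from 1 library and are shares of the same total. Plk2 was lower in embryos with more Mdm2, with r = -0.52 and rho = -0.52 (permutation p = 1e-05 for each, the smallest that the resamples can give, and adjusted p = 0.00013 for each). Without the 2 embryos farthest from the median of Mdm2 it was -0.51, and within experiments 1, 2 and 3 it was -0.56, -0.58 and -0.48. Btg2 behaved alike, with r = -0.49 and rho = -0.51 (permutation p = 1e-05 for each, adjusted p = 0.00013), and with -0.44, -0.58 and -0.50 within experiments 1, 2 and 3. The value for Btg2 was -0.48 without the 2 farthest embryos. Both relations were negative in knockdown embryos (-0.48 for Plk2 and -0.46 for Btg2) and in control embryos (-0.56 and -0.51). Xpc, Tnfrsf10b, Ccng1 and Pmaip1 were the other negative relations, with r between -0.36 and -0.28.

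Aen had the highest positive relation with Mdm2, with r = 0.35 and rho = 0.40 (permutation p = 0.00034 and 2e-05, adjusted p = 0.0023 and 0.00018). It was 0.35 without the 2 farthest embryos and 0.36, 0.28 and 0.37 within experiments 1, 2 and 3. Ddb2, Ei24, Apaf1, Polk, Bbc3, Ckap2 and Gtse1 followed with r between 0.32 and 0.22, of which Ckap2 and Gtse1 did not pass with rho (adjusted p = 0.056 and 0.059). Without the 7 embryos that stood apart, the relation of Gtse1 no longer passed (r = 0.21, adjusted p = 0.081). The relation of Cdkn1a, another classical target, with Mdm2 did not pass, with r = -0.08 and rho = -0.09 (permutation p = 0.412 and 0.381, adjusted p = 0.483 and 0.467). Its r was -0.07 without the 2 farthest embryos and -0.09, 0.12 and -0.13 within experiments 1, 2 and 3.

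**Figure D5:**
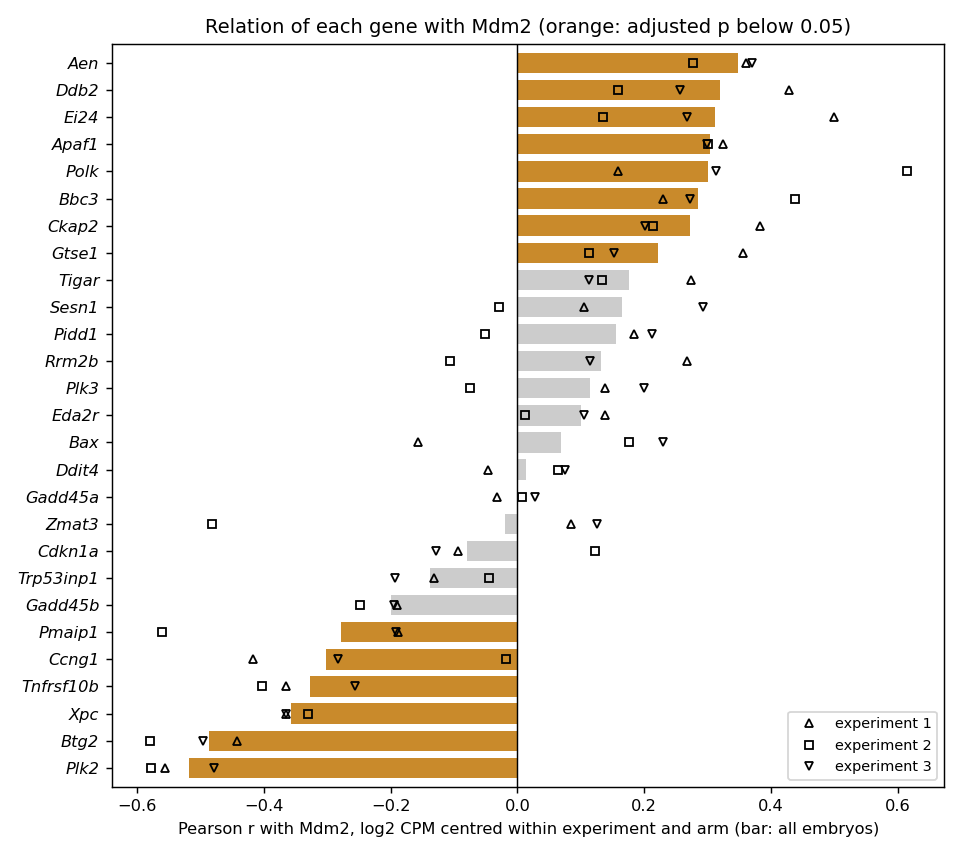
Pearson r of each tested gene with Mdm2 over all embryos (bars, orange where the adjusted p is below 0.05) and within each experiment (open symbols), from log2 CPM centred within experiment and arm. The bars run from -0.52 for Plk2 to 0.35 for Aen, and Cdkn1a sits near 0 at -0.08.

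The same genes were related to 4 measures of the embryo, a family of 112 relations that was added after the data had been examined. The shares of all genes related to these measures were not computed, so the counts given for them do not set these genes apart from others. With the library total, 1 of the 28 genes was related, Pmaip1 (r = -0.27, rho = -0.21, permutation p = 0.0089 and 0.030, adjusted p = 0.034 and 0.098). With the summed 2-cell markers, 7 genes were positively and 7 negatively related by r. Of these, Gadd45b did not pass with rho (r = 0.28, rho = 0.19, permutation p = 0.0059 and 0.056, adjusted p = 0.024 and 0.158). Plk2 had r = 0.69 and rho = 0.72 with that sum, Btg2 had r = 0.63 and rho = 0.66, and Mdm2 had r = -0.60 and rho = -0.68 (permutation p = 1e-05 and adjusted p = 0.00014 for each value). Without the 2 embryos farthest in the sum these were 0.70 for Plk2, 0.63 for Btg2 and -0.65 for Mdm2. Within experiments 1, 2 and 3 the relation was 0.62, 0.78 and 0.71 for Plk2, 0.64, 0.57 and 0.66 for Btg2, and -0.59, -0.72 and -0.58 for Mdm2. Of the 8 genes related positively to Mdm2, 6 were related negatively to the sum of 2-cell markers, and all 6 genes related negatively to Mdm2 were related positively to it. The part of the 2-cell markers in the relations with Mdm2 was not tested.

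With the summed mitochondrial transcripts, 1 gene was positively and 3 were negatively related by r, and none of the 4 passed with rho. Ccng1 had r = 0.25 and rho = 0.13 (permutation p = 0.013 and 0.183, adjusted p = 0.047 and 0.311), with 0.60, -0.08 and -0.12 within experiments 1, 2 and 3. Gtse1 had r = -0.34 and rho = -0.23 (permutation p = 0.00052 and 0.018, adjusted p = 0.0034 and 0.067), with -0.30, 0.02 and -0.50 within the experiments. Tigar had r = -0.31 and rho = -0.17 (permutation p = 0.0014 and 0.089, adjusted p = 0.0075 and 0.202), with -0.44, 0.33 and -0.40 within the experiments. Aen had r = -0.28 and rho = -0.18 (permutation p = 0.0042 and 0.065, adjusted p = 0.018 and 0.175), with -0.42, 0.14 and -0.25 within the experiments. The part of the mitochondrial transcripts in these levels was not tested. Without the 2 farthest embryos r was 0.23 for Ccng1, -0.23 for Gtse1, -0.26 for Tigar and -0.23 for Aen. Without the 7 embryos that stood apart it was 0.14 for Ccng1, -0.10 for Gtse1, -0.09 for Tigar and -0.09 for Aen.

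With the summed oocyte markers, 2 genes were positively and 10 negatively related by r. Polk did not pass with rho (r = 0.29, rho = 0.15, permutation p = 0.0054 and 0.131, adjusted p = 0.022 and 0.255). Nor did Gadd45b (r = -0.46, rho = -0.23, permutation p = 6e-05 and 0.018, adjusted p = 0.00056 and 0.067). Pidd1 had r = -0.58 and rho = -0.54 (permutation p = 1e-05 and adjusted p = 0.00014 for each), with -0.57 without the 2 farthest embryos and -0.45, -0.79 and -0.63 within experiments 1, 2 and 3. Rrm2b had r = 0.52 and rho = 0.36 (permutation p = 1e-05 and 0.00024, adjusted p = 0.00014 and 0.0016), with 0.37 without the 2 farthest embryos and 0.38, 0.53 and 0.59 within the experiments. Without the 7 embryos that stood apart, r was -0.56 for Pidd1, 0.34 for Rrm2b, 0.14 for Polk and -0.23 for Gadd45b. The sum of oocyte markers reached 16479 CPM in a knockdown embryo of experiment 3, against at most 6871 CPM in control embryos.

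Genes around the pathway were taken from 4 other lists, and none of their tested members was called for the knockdown, against 1.10% of all genes. Trp53, which encodes p53, averaged 55.8 ± 32.8 CPM in knockdown embryos (SD, n = 55) and 54.1 ± 21.3 CPM in control embryos (SD, n = 56), for a log2 fold change of 0.0042 with an SE of 0.13. Among 30 tested regulators of p53 and members of its family, 19 were positive and 11 negative, with a median of 0.05. Topors, a ubiquitin and SUMO ligase that acts on p53, had the smallest p of them, with 172 ± 60.7 CPM in knockdown embryos and 214 ± 87.6 CPM in control embryos (log2 fold change -0.36 ± 0.10, adjusted p = 0.055). Rchy1, another ubiquitin ligase of p53, had a log2 fold change of 0.17 ± 0.08 (adjusted p = 0.404). Among 33 other p53 targets, 14 were positive and 19 negative, with a median of -0.06. Sfn, which encodes the checkpoint protein 14-3-3 sigma, had -0.50 ± 0.18 (adjusted p = 0.229), and Rnf169, a protein of chromatin at DNA breaks, had 0.45 ± 0.18 (adjusted p = 0.314). Among 24 genes of the apoptosis core, 10 were positive and 14 negative. Cycs, cytochrome c, had -0.19 ± 0.08 (adjusted p = 0.380). Among 20 damage sensors and checkpoint genes, 10 were positive and 10 negative. Wee1, the kinase that inhibits Cdk1, had -0.33 ± 0.13 (adjusted p = 0.255), and Atrip, the partner of the kinase ATR, had 0.30 ± 0.12 (adjusted p = 0.319).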

How the data were processed

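Single embryos were sequenced with SmartSeq2, which primes from poly(A) tails and keeps neither strand nor molecular identifiers. Per the submitters' processing notes, the tools were kallisto 0.46.1, DESeq2 1.32.0, Trim Galore 0.6.2, bcl2fastq and R 3.5.1, and the builds mm10 and hg19. No label or header names the annotation release. The authors deposited estimated counts per transcript. These were summed to 36134 gene identifiers and rounded. Transcripts without a gene held a median of 0.567% of counts and stayed out of the fits. The authors also deposited a batch-adjusted table, used here as a score in an alternative, and tables of their own comparisons with log2 fold changes, p-values and a mean signal per transcript.

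The design text names 55 knockdown and 57 control embryos, and experiment 2 is used here without its control embryo 1. Genes passing filterByExpr were scaled by TMM and fitted with edgeR 4.0.16 (quasi-likelihood F-test, experiment and arm as terms, 107 residual degrees of freedom, R 4.3.3), and p-values were adjusted over all genes tested by Benjamini-Hochberg at a threshold of 0.05. The same script was tested on simulated counts. Gene positions are from GENCODE M21 (GRCm38). Correlations used log2 CPM with a prior count of 2. PCR reads without molecular identifiers are not independent molecules, so floors cover counting error only. The highest correlation between 2 libraries was 0.974, so none was treated as a repeat deposit.

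Genes given with values for each group were those with an unadjusted p below 0.05 for the arm, the 6 with the smallest p between experiments, the 6 highest per length, and Cdkn1a and Mdm2. The members and lists were chosen with earlier results of these data known. Alternatives were other scalings, other filters, leaving out an experiment or the 7 embryos that stood apart, sums per group, DESeq2 1.42.0, limma-voom (limma 3.58.1) and the batch-adjusted table.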

Additional observations from a re-analysis of the deposited data

Results flagged for a closer look

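In the 7 control embryos of experiment 2, 6 of the 28 tested genes had an embryo whose distance from its nearest neighbour was large for the range of the group (Dixon's critical value 0.568). Chance marks about 1 in 20 groups of normally distributed values, which was not checked for CPM. The genes share the same 7 embryos, so the 6 marks are not independent and are not counted against that rate. In control embryo 2, Ccng1 was at 42.3 CPM with the next embryo at 15.2 CPM, and Trp53inp1 was at 119 CPM with the next at 70.2 CPM. This embryo is also among the 7 that stood apart over all genes. In control embryo 4, Plk3 was at 80.6 CPM with the next at 38.5 CPM, Sesn1 was at 72.5 CPM with the next at 36.3 CPM, and Bbc3 was at 4.28 CPM with the next at 1.45 CPM. In control embryo 6, Polk was at 11.8 CPM with the next at 5.46 CPM.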

How the results depend on the processing

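None of the genes tested in each of 13 alternatives (27 to 33 of the 33, without Bbc3 where experiment 3 was left out) was called for the knockdown, and the smallest adjusted p was 0.149 (edgeR, DESeq2 and limma). Of the 28, 20 kept 1 sign. Over all genes, 148 were called (85 higher and 63 lower in knockdown embryos), against 45 with size factors from oocyte markers (37 and 8), 127 with library totals (58 and 69), 124 in the batch-adjusted table (49 and 75), 199 with limma-voom (101 and 98), 965 without a filter, 227 with DESeq2, 3 in counts summed by group, and 105 without the 7 embryos that stood apart (55 and 50). Without experiment 1, 2 or 3 there were 23, 195 and 42. Embryo numbers shared between arms mark no common source in the labels (median r of deviations 0.052 over 46 pairs, 5 best with their own number), and with the replicate block 23 genes were called. The difference between experiments was called for 12 of 28 genes and 4304 in all, against 11 of 33 and 6581 in all without a filter, 11 of 28 with library totals, and 3 and 1717 in control embryos alone, which has fewer samples. Btg2 (adjusted p = 0.053) and Gtse1 (0.061) did not pass without a filter, where Phlda3 did (0.013), and Pmaip1 (0.075) did not pass with library totals. The response differed for 2 genes in all, and for 7 with library totals. Signs turned for Ccng1 (-0.095) and Pmaip1 (-0.045) without experiment 1, for Btg2 (0.032), Gadd45a (0.15) and Ckap2 (0.11) without experiment 3, and for Xpc (0.038) without experiment 2. Ckap2 was also 0.095 with oocyte size factors, 0.015 without the 7 embryos, 0.033 in summed counts and 0.0020 with the replicate block. With that block, Tnfrsf10b was -0.079 and Eda2r -0.0048. Eda2r was -0.19 with limma-voom and -0.16 in the batch-adjusted table. The relation of Mdm2 with Zmat3 was 0.015 with library totals. The cause of these changes was not tested. Among the genes tested, Bbc3, Polk, Eda2r and Ddit4 had low median counts, and the 5 genes not tested had lower ones still, so their levels carry a large counting error.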

Other observations

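All 378 pairs of the 28 tested genes were also related over all embryos, a family added after the data had been examined (permutation test within groups, two-sided, 100000 resamples). After adjustment over the family, 84 pairs were positive and 51 negative, and the median r was 0.019. The share among pairs of other genes was not computed, so these counts do not set these genes apart from others. Ei24 and Tigar had the highest value, with r = 0.85 and rho = 0.76 (permutation p = 1e-05 for each, the smallest possible, adjusted p = 9.22e-05 and 0.000126). Within experiments 1, 2 and 3 r was 0.71, 0.92 and 0.91, without the 2 farthest embryos it was 0.81, and without the 7 embryos that stood apart it was 0.75. Trp53inp1 and Ei24 had the lowest, with r = -0.55 and rho = -0.55 (permutation p = 1e-05 for each, adjusted p = 9.22e-05 and 0.000126), and with -0.39, -0.63 and -0.63 within experiments 1, 2 and 3 and -0.55 without the 2 farthest embryos.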
